A study of Rattus norvegicus with 6 samples.

Results

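Expression of 10 genes for receptors of the tumor necrosis factor (TNF) family and their TRAF adaptors was compared between LPS/siponimod and LPS in primary rat microglia. The genes were taken by name from the 6 deposited count tables, and all 10 (Tnfrsf1a, Tnfrsf1b, Tnfrsf9, Tnfrsf12a, Tnfrsf10b, Fas, Traf1, Traf2, Traf3 and Traf6) were among the 23139 genes listed. Microglia were shaken off mixed cultures of postnatal day 1 Wistar rat cortices and enriched with CD11b/c microbeads. All cells received 100 ng/mL lipopolysaccharide (LPS, a bacterial cell wall component that activates microglia), 3 libraries with the solvent DMSO and 3 with 50 µM siponimod, a modulator of the sphingosine 1-phosphate receptors S1PR1 and S1PR5. Groups without LPS were not analysed here, so that each value compares siponimod with DMSO on an LPS background. The study calls its replicates biological, and how many animals each culture held is not given in the sources used here. Total counts were between 38080379 and 46643859 per library.

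Receptors of this family sit in the cell membrane and are brought together by ligands that mostly form trimers. TNFR1 (Tnfrsf1a), FAS and TRAIL-R2 (Tnfrsf10b) carry a cytoplasmic death domain and can lead to caspase-8 activation, whereas TNFR2 (Tnfrsf1b), 4-1BB (Tnfrsf9) and FN14 (Tnfrsf12a) lack it and bind TRAF proteins directly. TRAF2, TRAF3 and TRAF6 hold a RING domain and work with ubiquitin enzymes that switch NF-κB and MAP kinase signalling on or off. TRAF1 is the family member without a RING domain, pairs with TRAF2 and is a well-known NF-κB target gene. In microglia TNF is one of the main products of LPS stimulation, and both TNF receptors are present on these cells.

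Libraries were compared before the genes were read. Of the 12 microglia markers listed, all 12 passed the filter on low counts, and their summed level was 8751, 7329 and 4916 CPM (counts scaled to the library size) under LPS and 3152, 4487 and 2467 CPM under LPS/siponimod. Csf1r was the most abundant of them, and Aif1, Itgam (CD11b, the antigen of the beads) and Cx3cr1 were downregulated; with the replicate number as a block 7 of the 12 fell, Csf1r among them. In bulk RNA, fewer cells of a type and less RNA per cell cannot be told apart. The 2 libraries numbered 3 stood apart by genes of other glia, since Olig1 had 515 counts in LPS replicate 3 and 17 in LPS/siponimod replicate 3 against at most 5 elsewhere, and Pdgfra had 284 and 81 against at most 5. Summed over 6 oligodendrocyte lineage markers (3 tested, Mbp the most abundant), levels were 5.34, 5.29 and 33.4 CPM under LPS and 11.4, 10.2 and 22.2 CPM under LPS/siponimod, and Mbp was upregulated. For 6 astrocyte markers (3 tested, Slc1a3 the most abundant) the sums were 42.5, 21.0 and 21.6 against 27.5, 26.8 and 57.6 CPM, and for 5 neuronal markers (2 tested, Tubb3 the most abundant) 3.16, 2.23 and 11.6 against 4.63, 6.41 and 15.3 CPM, with no DEG in either list without a block. In the fit with the block Tubb3 was upregulated (log2 FC 1.59, QL adjusted p = 0.0316). The other neuronal marker tested, Syp, went the other way without passing (with the block -1.45, QL adjusted p = 0.0697). Each LPS/siponimod library lay below each LPS library for Syp. Among 6 markers of fibroblasts and mural cells (5 tested, Dcn the most abundant) the sums were between 3.98 and 11.9 CPM. Dcn was upregulated from 3, 0 and 4 to 456, 49 and 178 counts. Of the 5 tested, however, 3 had a negative log2 FC (median -0.65). Col1a1 was lower in each LPS/siponimod library than in each LPS library (log2 FC -0.89, QL adjusted p = 0.0526). Of the endothelial markers 4 of 5 were listed in the files and 3 were tested, none a DEG without a block. In the fit with it, Pecam1 (log2 FC -2.40, QL adjusted p = 0.00966) and Cdh5 (-1.48, QL adjusted p = 0.0142) were downregulated. Tek, the remaining marker tested, went the other way without passing (0.93, QL adjusted p = 0.223, and with the block 1.09, QL adjusted p = 0.177). Kdr was at 0 in each library, Cdh5 was the most abundant, and the sums were 156, 202 and 81.9 against 37.4, 79.9 and 26.2 CPM. Of the T cell markers 4 of 5 were listed and 1 was tested. Cd3e and Cd3g were at 0 and Cd3d had at most 2 counts, while Cd8a, the most abundant and not a DEG, had between 25 and 100, with sums between 0.672 and 2.70 CPM. The 13 mitochondrially encoded genes held 1.54%, 1.39% and 1.41% of the counts under LPS and 0.313%, 0.610% and 0.568% under LPS/siponimod. The part of these differences in the results on the receptors and adaptors was not tested, except that values without single libraries and without both libraries numbered 3 are given.

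With siponimod, the gene of 1 adaptor rose and those of 3 receptors fell. Traf1 was upregulated 5.55-fold, while Tnfrsf1b fell to 0.455, Fas to 0.477 and Tnfrsf9 to 0.0519 of the LPS level. Tnfrsf1a, Traf2, Traf3 and Traf6 differed by less than 1.5-fold. Tnfrsf12a had a fitted rise of 3.61-fold that was not significant (QL adjusted p = 0.136). Genes were called differentially expressed (DEG) where the quasi-likelihood (QL) test of edgeR, run over all 11977 genes with sufficient counts, gave an adjusted p not above 0.05 together with a change of 1.5-fold or more. Of the 10 genes 9 were tested, all except Tnfrsf10b. The 4 DEGs among the 9 (44.4%) stand beside 25.3% DEGs over all genes tested, the 1 rise beside 13.6% and the 3 falls beside 11.7%. In 4 of the 9 the 3 LPS/siponimod libraries did not overlap with the 3 LPS libraries, as was the case for 49.3% of all genes tested. The median log2 fold change (FC, LPS/siponimod against LPS) of the 9 was -0.11, beside -0.02 over all genes. When same-numbered libraries were blocked, 2 genes rose, Traf1 and Tnfrsf12a, beside 17.7% of all genes, and the same 3 fell, beside 16.4%.

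**Figure D1:**
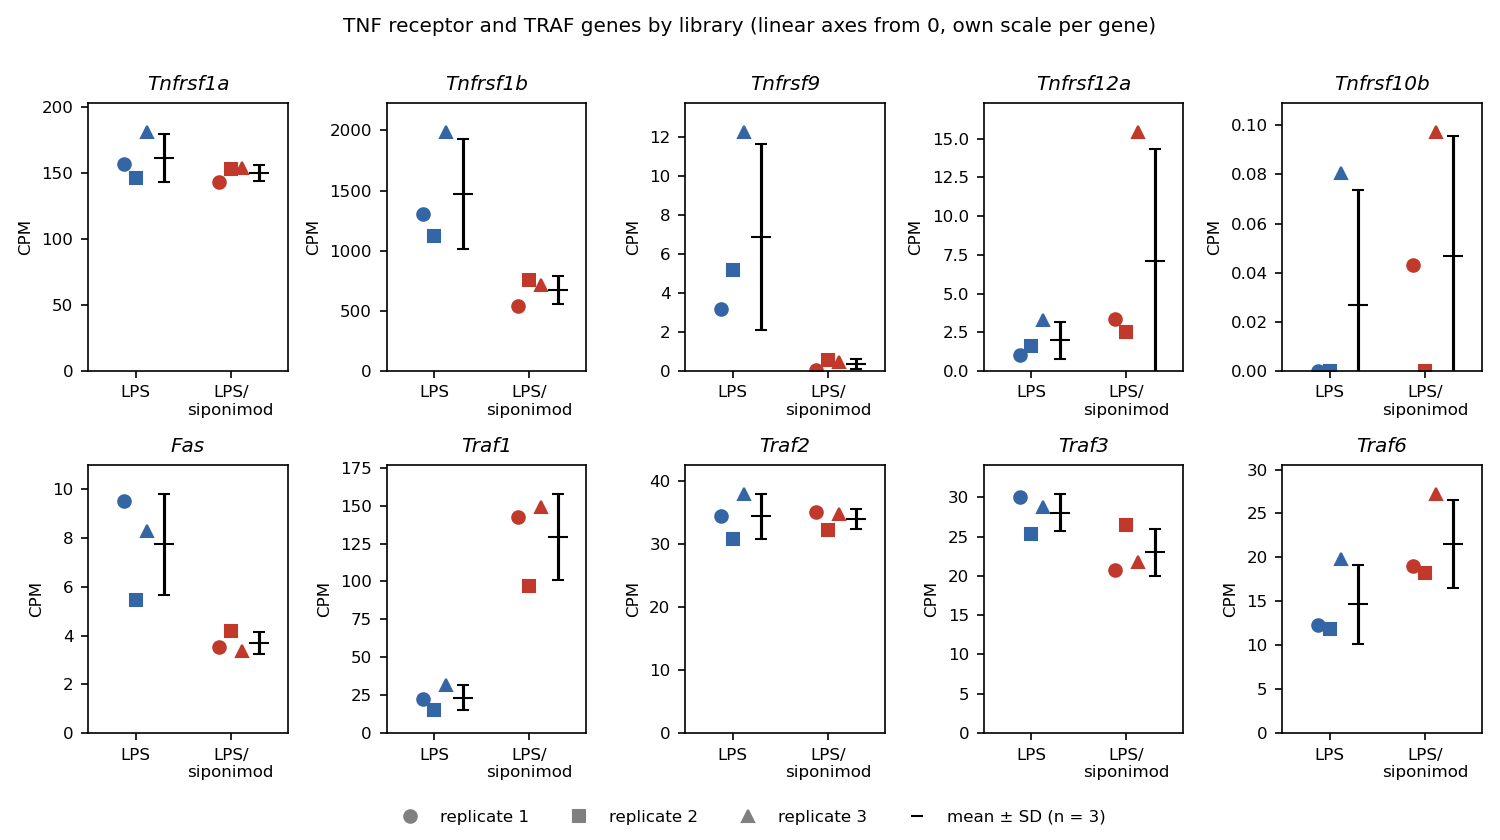
CPM of each of the 10 genes in the 3 LPS (blue) and 3 LPS/siponimod (red) libraries, with 1 panel and 1 linear axis from 0 per gene, symbols for the replicate number and the mean ± SD (n = 3) in black, cut at 0 where the SD exceeds the mean. The groups are apart for Tnfrsf1b, Tnfrsf9, Fas and Traf1 and overlap for the other 6, and LPS/siponimod replicate 3 stands alone for Tnfrsf12a with 15.5 CPM.

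Among the receptors, the TNF receptor genes differed from each other. Tnfrsf1a, which encodes the receptor that signals for both inflammation and death, had 157, 146 and 181 CPM under LPS and 143, 153 and 154 CPM under LPS/siponimod. The groups overlapped, and its log2 FC was -0.11 ± 0.13 (standard error, SE; QL adjusted p = 0.554). Tnfrsf1b, the receptor that is fully activated by membrane-bound TNF, had 1307, 1120 and 1991 CPM under LPS and 541, 760 and 711 CPM under LPS/siponimod. Each LPS/siponimod library lay below each LPS library, LPS replicate 3 was the highest, and the mean fell from 1473 ± 459 to 671 ± 115 CPM (mean ± SD of n = 3 libraries; log2 FC -1.14 ± 0.28 SE, QL adjusted p = 0.0291). In the same-numbered pairs the difference of log2 CPM was -1.27, -0.56 and -1.49. The log2 FC stayed between -1.28 and -0.85 with single libraries left out, but the QL adjusted p was 0.0576 without LPS replicate 1, 0.0602 without LPS replicate 2, 0.116 without LPS/siponimod replicate 1 and 0.0892 without LPS/siponimod replicate 3. Without both libraries numbered 3 the log2 FC was -0.90 (QL adjusted p = 0.0783).

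The balance of the 2 TNF receptor transcripts was also read within each library, where scaling to library size plays no part. Counts of Tnfrsf1b were 8.33, 7.66 and 10.99 times those of Tnfrsf1a under LPS, and 3.78, 4.98 and 4.62 times under LPS/siponimod. These ratios are not corrected for transcript length, so that they do not compare the levels of the genes, but their change between conditions can be read. The log2 ratio fell from 3.15 ± 0.27 to 2.15 ± 0.21 (SD, n = 3 each), by 1.00, and the groups did not overlap (exact permutation test, two-sided p = 0.10, which is the smallest that 3 libraries against 3 allow; 0.10 adjusted over the 2 ratios computed). Exchanging labels within the same-numbered pairs gave an exact p of 0.25, the smallest that 3 pairs allow.

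**Figure D2:**
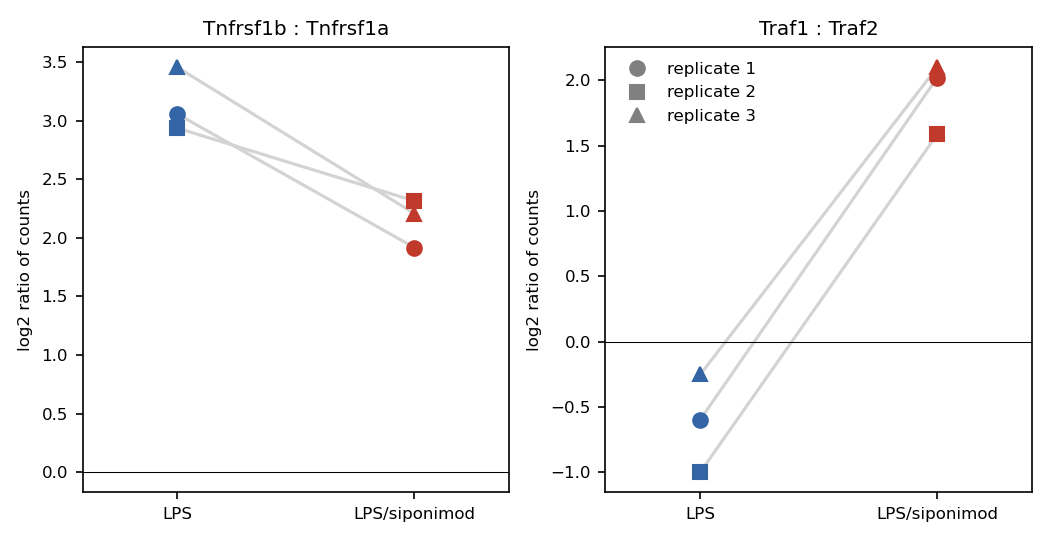
Log2 ratio of counts within each library for Tnfrsf1b to Tnfrsf1a (left) and Traf1 to Traf2 (right), LPS being shown in blue, LPS/siponimod in red and lines between libraries of the same replicate number. The left ratio is lower under LPS/siponimod in all 3 pairs and the right one is higher, passing 0 in each pair.

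Tnfrsf9 and Fas fell as well. Tnfrsf9 encodes 4-1BB (CD137), a costimulatory receptor best known from T cells, and had 118, 199 and 456 counts under LPS against 2, 25 and 19 under LPS/siponimod. The groups were far apart, with LPS replicate 3 the highest and LPS/siponimod replicate 1 within the limit of 3 counts that a count of 0 allows. The mean changed from 6.87 ± 4.77 to 0.355 ± 0.275 CPM (mean ± SD of n = 3 libraries; log2 FC -4.27 ± 0.94 SE, QL adjusted p = 0.0230). Of all genes tested, 0.134% had a lower log2 FC. The log2 FC was -3.55 without LPS replicate 3 (QL adjusted p = 0.0329), and the QL adjusted p was 0.0731 without LPS replicate 2, 0.0511 without LPS/siponimod replicate 1, 0.0726 without LPS/siponimod replicate 3 and 0.0614 without both libraries numbered 3.

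Fas, the receptor of FAS ligand, had 352, 210 and 308 counts under LPS and 164, 187 and 138 counts under LPS/siponimod. Scaled to library size these were 9.50, 5.45 and 8.28 against 3.53, 4.19 and 3.36 CPM, so that the groups were separate, with the narrowest gap in pair 2. The log2 FC was -1.07 ± 0.26 SE (QL adjusted p = 0.0291), and by pair the log2 CPM differed by -1.42, -0.38 and -1.29. The QL adjusted p was 0.0817 without LPS replicate 1, 0.114 without LPS/siponimod replicate 1, 0.0989 without LPS/siponimod replicate 3 and 0.106 without both libraries numbered 3, with log2 FCs between -1.25 and -0.87 over the fits that left out 1 library.

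Tnfrsf12a encodes FN14, the receptor of TWEAK, and had 37, 62 and 123 counts under LPS and 157, 112 and 635 under LPS/siponimod. It was higher with siponimod in each pair, by 1.71, 0.63 and 2.21 on the log2 CPM scale, but the groups overlapped, since LPS replicate 3 (3.31 CPM) exceeded LPS/siponimod replicate 2 (2.51 CPM). Its log2 FC of 1.85 ± 0.82 SE did not pass without a block (QL adjusted p = 0.136) and passed with the replicate block (1.56 ± 0.36 SE, QL adjusted p = 0.0280). Both libraries numbered 3, which held the most Olig1 and Pdgfra, were the highest of their groups for Tnfrsf12a. Without LPS/siponimod replicate 3 the log2 FC was 0.58 (QL adjusted p = 0.496), without LPS replicate 3 it was 2.46 (QL adjusted p = 0.0969), and without both libraries numbered 3 it was 1.18 (QL adjusted p = 0.0866).

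Tnfrsf10b, the gene of the death receptor TRAIL-R2, was scarcely counted in any library. It had 0, 0 and 3 counts under LPS and 2, 0 and 4 under LPS/siponimod. At this depth 3 counts, the limit that a count of 0 allows, correspond to between 0.0646 and 0.0809 CPM, counting error only, and no difference was detectable.

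The adaptors were led by Traf1. Under LPS the 3 libraries held 22.8, 15.4 and 31.9 CPM of Traf1, and under LPS/siponimod 142.7, 96.9 and 148.9 CPM. The lowest LPS/siponimod library was thus well above the highest LPS library, and the raw counts were 844, 593 and 1186 against 6634, 4325 and 6114. The mean rose from 23.4 ± 8.27 to 129.5 ± 28.4 CPM (mean ± SD of n = 3 libraries; log2 FC 2.47 ± 0.32 SE, QL adjusted p = 0.00733), which placed Traf1 at rank 254 by p-value among the 1633 upregulated DEGs. By pair the rise was 2.65, 2.65 and 2.22 on the log2 CPM scale. Traf1 remained a DEG in all 6 fits lacking a single library (log2 FC between 2.26 and 2.77, QL adjusted p between 0.00926 and 0.0397) and without both libraries numbered 3.

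Traf2, the adaptor that recruits cIAP ubiquitin ligases, had 34.5, 30.8 and 37.97 CPM under LPS and 35.2, 32.2 and 34.7 CPM under LPS/siponimod. The groups overlapped fully, and the log2 FC was -0.02 ± 0.12 SE (QL adjusted p = 0.936), a sign that turned with the library left out. Counts of Traf1 were 0.661, 0.50 and 0.840 times those of Traf2 under LPS and 4.06, 3.01 and 4.29 times under LPS/siponimod. The log2 ratio, again without correction for length, went from -0.62 ± 0.37 to 1.90 ± 0.28 (SD, n = 3 each), a difference of 2.52 with groups that did not overlap (exact permutation test, two-sided p = 0.10, the smallest possible; within pairs exact p = 0.25, also the smallest possible).

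Traf3, which restrains non-canonical NF-κB signalling by keeping the kinase NIK low, had 30.1, 25.4 and 28.7 CPM under LPS and 20.8, 26.4 and 21.8 CPM under LPS/siponimod. Pair 2 went against the other pairs, and the log2 FC was -0.29 ± 0.14 SE (QL adjusted p = 0.174). Traf6, the ubiquitin ligase used by Toll-like receptors and CD40, had 12.2, 11.8 and 19.9 CPM under LPS and 19.0, 18.2 and 27.3 CPM under LPS/siponimod. It was higher in each pair, but LPS replicate 3 lay above LPS/siponimod replicates 1 and 2. The log2 FC of 0.55 ± 0.27 SE was not significant (QL adjusted p = 0.167). With the replicate block the QL adjusted p was 0.0257, but the log2 FC of 0.57 was under 1.5-fold. Traf6 was a DEG without LPS replicate 3 (log2 FC 0.84, QL adjusted p = 0.0388) and without both libraries numbered 3 (0.63, QL adjusted p = 0.0484), and had a log2 FC of 0.35 without LPS/siponimod replicate 3 (QL adjusted p = 0.414).

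**Figure D3:**
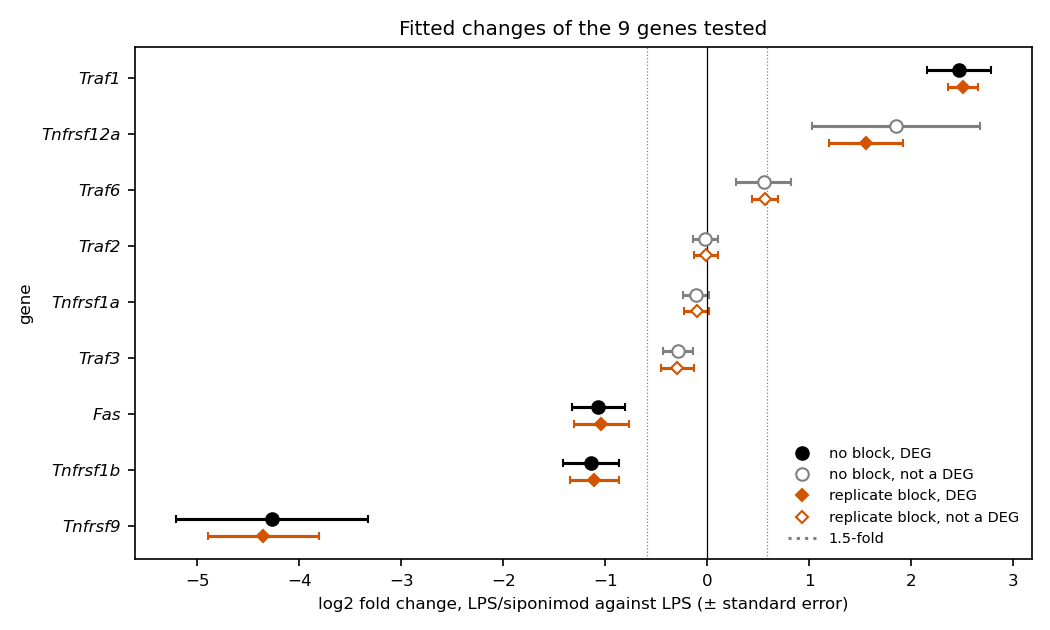
Fitted log2 FC ± SE (x axis) of the 9 genes tested, without a block (circles) and with the replicate number as a block (diamonds), filled where the gene was a DEG, with dotted lines at 1.5-fold. Traf1 lies at 2.47 and Tnfrsf9 at -4.27, and Tnfrsf12a is the gene whose call differs between the 2 fits.

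RefSeq promoter sequences of the rat assembly GRCr8 were looked up for the 10 genes, whether they changed or not. Reads had been mapped to another assembly (mRatBN7.2), and the coordinates below are those of GRCr8. The table held promoters of 8 of the 10 genes, without Tnfrsf10b and Traf6. In the 250 bases before the start site, on both strands, 3 motifs were searched: the AP-1-like TGANTCA, the ATF4-C/EBP-like TGATGNAA and a κB-like pattern of GGG and CC with 5 bases of any kind between them. No AP-1-like match overlapped a κB-like one. TGANTCA occurred in 3 of the 8 (Traf1, Tnfrsf1b and Fas), and in 6.34% of 33469 promoters. All 3 of these genes were DEGs, 1 up and 2 down, beside 4 DEGs among the 9 genes tested and 25.3% DEGs over all genes. The promoter of the remaining DEG, Tnfrsf9, held none of the 3 motifs. A link between motif and change was not tested. The κB-like pattern, which is short on fixed bases, occurred in 6 of the 8 and in 42.3% of all promoters, and TGATGNAA in none of the 8 and in 3.40% of all. A match describes letters and is no evidence that a factor binds there. The 3 promoters with the AP-1-like motif are shown 5′ to 3′ in the direction of the gene, ending at the base before the start site, with the motif in capitals. It lies at bases -81 to -75 in Traf1, -186 to -180 in Tnfrsf1b and -205 to -199 in Fas, counted back from the start site.
Traf1 (chr3:38635771-38636020, minus strand): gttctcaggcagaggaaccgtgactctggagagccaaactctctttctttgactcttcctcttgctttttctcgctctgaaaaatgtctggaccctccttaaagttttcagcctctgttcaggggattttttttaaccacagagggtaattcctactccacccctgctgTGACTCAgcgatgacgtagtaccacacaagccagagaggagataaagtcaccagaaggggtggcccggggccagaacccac
Tnfrsf1b (chr5:162387412-162387661, minus strand): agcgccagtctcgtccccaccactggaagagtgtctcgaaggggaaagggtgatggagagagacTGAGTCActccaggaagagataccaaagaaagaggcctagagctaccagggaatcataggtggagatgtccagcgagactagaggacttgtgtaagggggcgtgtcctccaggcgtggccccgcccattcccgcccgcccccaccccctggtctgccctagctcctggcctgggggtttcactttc
Fas (chr1:241211905-241212154, plus strand): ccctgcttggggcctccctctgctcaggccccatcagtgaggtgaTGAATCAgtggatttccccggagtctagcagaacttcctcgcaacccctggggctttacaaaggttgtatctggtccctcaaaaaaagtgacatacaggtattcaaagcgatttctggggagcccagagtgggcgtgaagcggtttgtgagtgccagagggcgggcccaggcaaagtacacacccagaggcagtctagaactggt
The motif reads TGACTCA in Traf1, TGAGTCA in Tnfrsf1b and TGAATCA in Fas. TGACTCA and TGAGTCA are the same palindromic site read on opposite strands.

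Genes of the ligands were set beside those of the receptors. All 7 listed ligands were tested, of which 2 rose, none fell and 5 passed neither way, with a median log2 FC of -0.64 beside -0.02 over all genes. The 2 DEGs (28.6%) stand beside 25.3% over all genes. With the replicate block 3 rose, beside 17.7% of all genes, and 1 fell, beside 16.4%. For 2 pairs the ligand rose while the receptor fell. Tnfsf9, the ligand of 4-1BB, had 494, 422 and 358 counts under LPS and 1462, 1591 and 916 under LPS/siponimod (log2 FC 1.399 ± 0.22 SE, QL adjusted p = 0.0107), against the log2 FC of -4.27 of Tnfrsf9. Its QL adjusted p was 0.0569 without LPS replicate 2 and also missed the threshold without LPS/siponimod replicate 1. Faslg had 6, 4 and 7 against 89, 80 and 138 counts (log2 FC 3.94 ± 0.45 SE, QL adjusted p = 0.00654), beside -1.07 for Fas, and stayed a DEG whichever library was left out.

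Tnfsf12 (TWEAK) and its receptor gene Tnfrsf12a had positive values without passing the threshold. Tnfsf12 counts were 1463, 880 and 289 under LPS and 3964, 2335 and 2062 under LPS/siponimod, and the groups did not overlap (log2 FC 1.42 ± 0.57 SE, QL adjusted p = 0.105). Its log2 FC ranged, as each library was omitted, between 1.01 without LPS replicate 3 (QL adjusted p = 0.0729) and 2.04 without LPS replicate 1 (QL adjusted p = 0.0670). With the replicate block Tnfsf12 was a DEG (1.64, QL adjusted p = 0.0235), as was Tnfrsf12a. Tnf itself had 2783, 5994 and 21114 counts under LPS and 4083, 8390 and 5638 under LPS/siponimod. It was higher with siponimod in pairs 1 and 2 and lower in pair 3, and its log2 FC of -0.95 ± 0.74 SE (QL adjusted p = 0.358) became 0.26 without LPS replicate 3. Lta (log2 FC -4.44 ± 1.71 SE, QL adjusted p = 0.0961) had 4255 counts in LPS replicate 3 and at most 161 in the other libraries, and was -0.67 without that library. Ltb, whose product forms a membrane complex with lymphotoxin alpha, had a log2 FC of -0.64 (QL adjusted p = 0.367), and was a DEG without LPS/siponimod replicate 2 (-1.44, QL adjusted p = 0.0197) and -0.35 without LPS/siponimod replicate 3. Tnfsf10 (TRAIL) had 1770, 1012 and 220 against 130, 276 and 25 counts (log2 FC -3.06 ± 1.02 SE, QL adjusted p = 0.0669) and was a DEG with the replicate block (-3.13, QL adjusted p = 0.00907) and without LPS replicate 3 (-3.53, QL adjusted p = 0.0316). It was -2.33 without LPS replicate 1 (QL adjusted p = 0.175) and -3.96 without LPS/siponimod replicate 2 (QL adjusted p = 0.0674). Its receptor gene Tnfrsf10b had at most 4 counts.

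**Figure D4:**
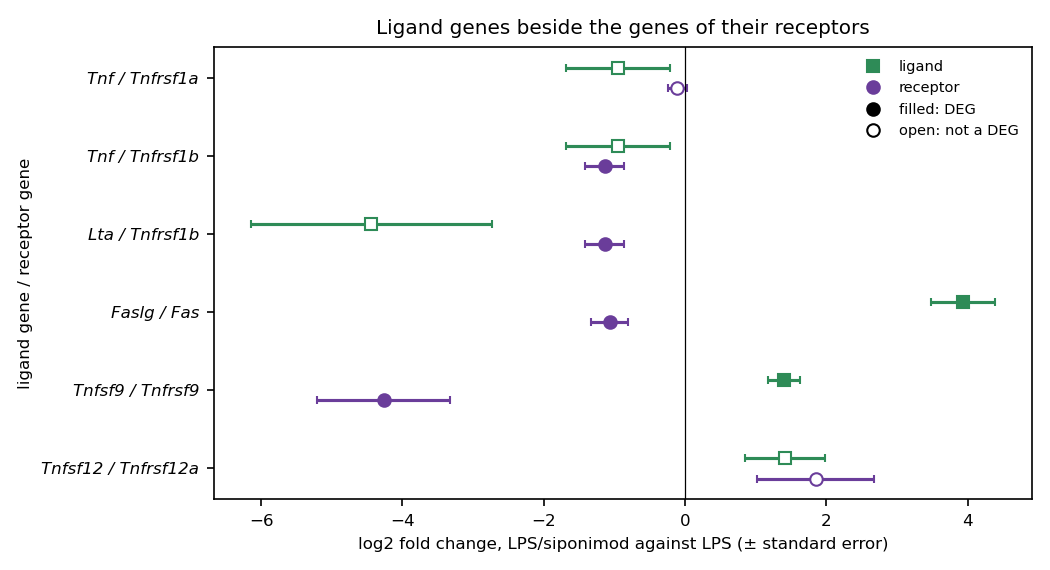
Log2 FC ± SE (x axis) of ligand genes (green squares) and the genes of their receptors (purple circles), with 1 row per ligand and receptor and filled symbols for DEGs without a block. Faslg and Tnfsf9 lie to the right of 0 with Fas and Tnfrsf9 to the left, and Tnfsf12 and Tnfrsf12a both lie to the right with open symbols.

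Of 20 other receptor genes of the family, 11 had too few counts to be tested. Among the 9 tested, 1 rose, 3 fell and 5 passed neither way, with a median log2 FC of -0.47 beside -0.02 over all genes. The 4 DEGs (44.4%) stand beside 25.3% over all genes tested. With the replicate block 1 rose, beside 17.7% of all genes, and 4 fell, beside 16.4%. Tnfrsf26 counts were 381, 510 and 1298 under LPS and 4809, 3710 and 5497 under LPS/siponimod (log2 FC 2.46 ± 0.50 SE, QL adjusted p = 0.0189). Tnfrsf8 (CD30) had 1444, 1305 and 1238 against 105, 365 and 166 counts (-2.87 ± 0.47 SE, QL adjusted p = 0.0110). Tnfrsf11a, which encodes RANK, the receptor of the osteoclast factor RANKL, had a log2 FC of -2.78 (QL adjusted p = 0.0280), and Tnfrsf14, which encodes the herpesvirus entry mediator HVEM, of -1.11 (QL adjusted p = 0.0375). The largest QL adjusted p with 1 library left out was 0.0762 for Tnfrsf26, 0.0508 for Tnfrsf8, 0.10 for Tnfrsf11a and 0.0985 for Tnfrsf14, in each case without LPS replicate 2. Single libraries also moved the size of 3 of them, Tnfrsf26 to 3.19 without LPS replicate 3, and Tnfrsf8 to -3.50 and Tnfrsf11a to -3.46 without LPS/siponimod replicate 2. Relt had 2833, 6658 and 4420 against 485, 3056 and 524 counts (log2 FC -2.01, QL adjusted p = 0.102), and was a DEG with the block (-2.48, QL adjusted p = 0.0127) and without LPS/siponimod replicate 2 (-3.41, QL adjusted p = 0.00949), but not without any other single library (QL adjusted p up to 0.264). Cd40 had 2260, 1673 and 4015 against 2762, 2039 and 1961 counts, and the log2 FC of -0.47 (QL adjusted p = 0.316) rested on LPS replicate 3, being -0.03 without it. The lymphotoxin β receptor gene Ltbr had a log2 FC of 0.25 (QL adjusted p = 0.0994).

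Among 11 further genes of TRAFs and TRAF-binding proteins, 10 were tested, none rose and 4 fell, with a median log2 FC of -0.72 beside -0.02 over all genes. The 4 falls (40.0%) stand beside 11.7% over all genes tested, and the 5 falls with the replicate block beside 16.4%. Tifa, which encodes a TRAF6-binding adaptor for bacterial sugar sensing, had 5868, 6104 and 3374 counts under LPS and 773, 1772 and 637 under LPS/siponimod (log2 FC -2.50 ± 0.45 SE, QL adjusted p = 0.0137). Its relative Tifab had a log2 FC of -3.93 (QL adjusted p = 0.0659) and was a DEG with the block (-4.38, QL adjusted p = 0.00740), without LPS replicate 3 (-4.43, QL adjusted p = 0.0364) and without LPS/siponimod replicate 2 (-6.09, QL adjusted p = 0.0262), but not without any other single library (-3.30 without LPS replicate 2, QL adjusted p = 0.184). Traf3ip2 (ACT1, the adaptor of the interleukin-17 receptor) fell by 2.67 on the log2 scale (QL adjusted p = 0.0241). Traf5, a relative of Traf2, had 260, 333 and 122 against 46, 110 and 42 counts and fell by 2.08 (QL adjusted p = 0.0332), and Trafd1 fell by 1.01 (QL adjusted p = 0.0447). All 4 of these genes missed the threshold without LPS replicate 2, without LPS/siponimod replicate 1 and without LPS/siponimod replicate 3, with QL adjusted p-values of up to 0.0669 for Tifa, 0.0891 for Traf3ip2, 0.130 for Traf5 and 0.168 for Trafd1. Without the filter on low counts the QL adjusted p of Trafd1 was 0.0604.

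Of 24 genes for adaptors, ubiquitin enzymes and kinases of the signalling complex below the receptors, all 24 were tested, 2 rose, 2 fell and 20 passed neither way. The 4 DEGs (16.7%) stand beside 25.3% over all genes tested, and the median log2 FC was 0.01 beside -0.02. Birc2, which encodes the ubiquitin ligase cIAP1 that TRAF2 recruits, had 2552, 1780 and 1111 counts under LPS and 22816, 6402 and 7035 under LPS/siponimod (log2 FC 2.48 ± 0.57 SE, QL adjusted p = 0.0261). Its relative Birc3 (cIAP2) had a log2 FC of 0.46 (QL adjusted p = 0.0855). Tab3, a subunit of the TAK1 kinase complex, rose by 0.95 (QL adjusted p = 0.0142). Ube2n (UBC13, the ubiquitin-conjugating enzyme that works with TRAF6) had 4564, 5356 and 5894 against 2742, 3263 and 2732 counts (log2 FC -1.08 ± 0.15 SE, QL adjusted p = 0.00797) and stayed a DEG with each single library left out. Tnip1, whose product binds the deubiquitinase A20, fell by 0.87 (QL adjusted p = 0.0275). Birc2, Tab3 and Tnip1 lost the call in 4, 3 and 4 of the 6 fits without 1 library, with QL adjusted p-values of up to 0.104, 0.0665 and 0.114. The log2 FC of Birc2 was 1.70 without LPS/siponimod replicate 1, its highest library (QL adjusted p = 0.0603). The A20 gene Tnfaip3 had a log2 FC of 0.65 (QL adjusted p = 0.0742; with the block 0.68, QL adjusted p = 0.0236), Tradd of -0.53 (QL adjusted p = 0.156; a DEG without LPS replicate 3 at -0.71, QL adjusted p = 0.0477, and -0.23 without LPS replicate 1) and Ripk1 of 0.36 (QL adjusted p = 0.0990). With the block 4 of the 24 rose, beside 17.7% of all genes, and 2 fell, beside 16.4%. Those that rose were Birc2, Tab3, Tnfaip3 and the kinase gene Map3k5 (log2 FC 1.38, QL adjusted p = 0.0455).

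In the arm of death receptor signalling, 9 of 9 genes were tested, none rose, 2 fell and 7 passed neither way (median log2 FC -0.24 beside -0.02). The 2 DEGs (22.2%) stand beside 25.3% over all genes tested. With the block 1 rose, beside 17.7% of all genes, and 3 fell, beside 16.4%. Mlkl, which encodes the pore-forming executor of necroptosis, had 5686, 5741 and 4831 counts under LPS and 2679, 3108 and 2365 under LPS/siponimod (log2 FC -1.23 ± 0.14 SE, QL adjusted p = 0.00636), and its call held with each single library left out. Daxx, named for its binding to FAS, fell by 1.09 (QL adjusted p = 0.0165, and up to 0.0805 with 1 library left out, without LPS/siponimod replicate 1). Fadd and Casp8, the adaptor and the protease recruited by FAS, had log2 FCs of 0.26 (QL adjusted p = 0.503) and 0.12 (QL adjusted p = 0.393). Cflar, the caspase-8 inhibitor, had 1528, 1345 and 4150 against 6239, 4542 and 5268 counts (0.96, QL adjusted p = 0.158), and was a DEG with the block (1.16, QL adjusted p = 0.0479) and without LPS replicate 3 (1.68, QL adjusted p = 0.0108), but not without any other single library (QL adjusted p up to 0.336). Ripk3, the kinase that activates MLKL, had a log2 FC of -0.86 (QL adjusted p = 0.0554) and was a DEG with the block (-0.85, QL adjusted p = 0.0449), without LPS replicate 1 (QL adjusted p = 0.0488) and without LPS/siponimod replicate 2 (QL adjusted p = 0.0429), but not without any other single library (QL adjusted p up to 0.187).

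Of 10 NF-κB subunit and inhibitor genes, 3 rose, 2 fell and 5 passed neither way, with a median log2 FC of -0.19 beside -0.02. The 5 DEGs (50.0%) stand beside 25.3% over all genes tested. Nfkbib (1.51, QL adjusted p = 0.00883), Rela (0.80, QL adjusted p = 0.00886) and Rel (1.06, QL adjusted p = 0.0380) rose, and Bcl3 (-1.61, QL adjusted p = 0.0189) and Nfkb2 (-0.66, QL adjusted p = 0.0301) fell. Nfkbib kept its call with each single library left out, and the largest QL adjusted p of the others was between 0.0508 (Rela, without LPS replicate 2) and 0.125 (Nfkb2, without LPS/siponimod replicate 1). Among 5 genes of receptor shedding, 4 were tested and 1 rose, Rhbdf2 (iRhom2, the partner of the TNF-releasing protease ADAM17), with 2824, 2606 and 5613 against 10408, 8746 and 8765 counts (log2 FC 1.10 ± 0.32 SE, QL adjusted p = 0.0466). The median of the 4 was -0.12, and the 1 DEG (25.0%) stands beside 25.3% over all genes. Adam17 had a log2 FC of -0.58 (QL adjusted p = 0.0728), and was a DEG without both libraries numbered 3 (-0.83, QL adjusted p = 0.0458). Without LPS replicate 3 the log2 FC of Rhbdf2 was 1.56 (QL adjusted p = 0.00999), while without any other single library its QL adjusted p was above 0.05 and up to 0.147, and without the filter on low counts it was 0.0554.

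**Figure D5:**
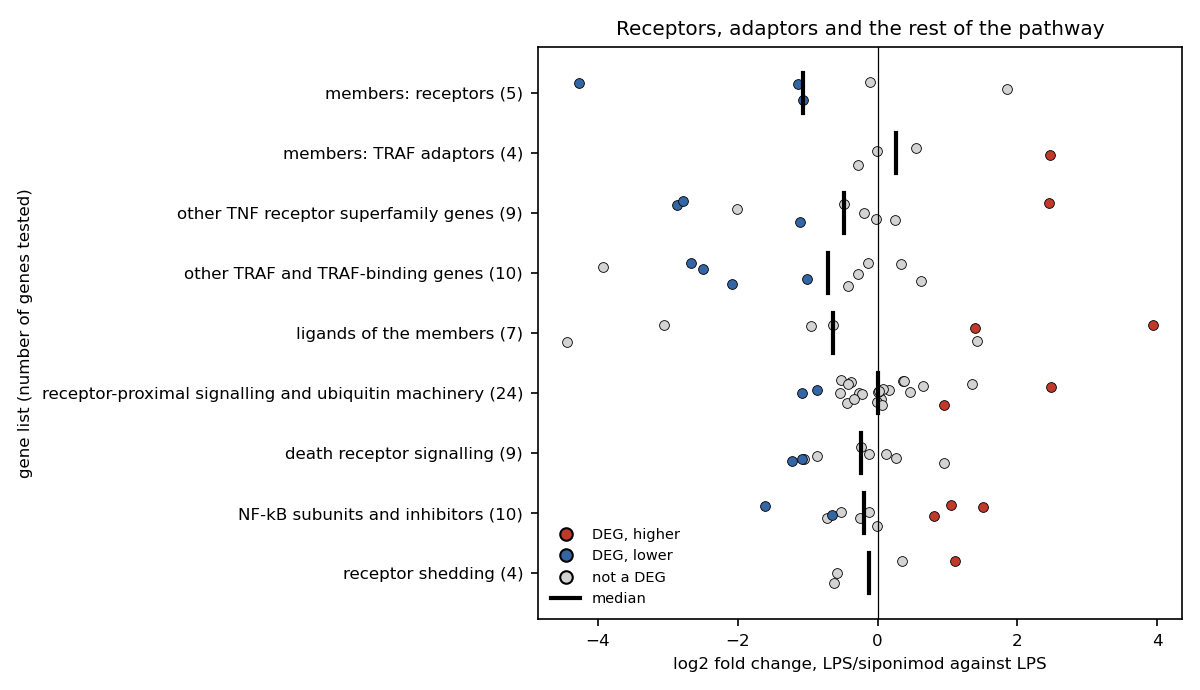
Log2 FC (x axis) of each gene tested in 9 lists (y axis), with 1 point per gene, DEGs in red (higher) or blue (lower), other genes in grey and the median of each list as a black bar. TRAF and TRAF-binding genes outside the 10 hold 4 DEGs, all lower, and the list of signalling and ubiquitin machinery has a median of 0.01.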

How the data were processed

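Bulk mRNA of 6 libraries of primary rat microglia (LPS and LPS/siponimod, 3 replicates each, numbered 1 to 3 in both groups) was analysed. The authors demultiplexed single-end reads with bcl2fastq (v2.20.0.422), trimmed and mapped them to mRatBN7.2 in the CLC Genomics Workbench, and deposited total read counts per gene without normalization, 1 table per library. Handling of strand and of reads matching several genes is not given in the sources used here, so that genes with near-identical copies or overlapping neighbours are uncertain. In 1 table, 1 row without name or value (0 counts) was left out.

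Counts were scaled to CPM with TMM factors and tested with edgeR 4.0.16 under R 4.3.3: filterByExpr (minimum count 10, minimum total 15; 11977 of 23139 genes kept), glmQLFit and glmQLFTest with a single coefficient for siponimod, p-values being adjusted over all genes (Benjamini-Hochberg). SEs are log2 FC divided by the square root of F, and pair values use a prior count of 2. Ratios within libraries used a pseudocount of 0.5. The procedure was tested on simulated counts. Centred on group means, same-numbered libraries correlated at 0.420, 0.545 and 0.611 over genes (other pairs at most 0.0856). On this evidence of the data the numbers were read as pairs in the pair values and in the fit with the replicate block. The main fit, which gave the calls, did not use them. No 2 libraries held the same values.

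Alternatives were RLE, DESeq2 (version 1.42.0), limma-voom (limma version 3.58.1), the likelihood ratio test, no filter, the replicate block, and each library left out; leaving out both libraries numbered 3 was added after seeing the data. The genes and lists, written from general knowledge, were chosen with earlier results of these data known. Named were the 10 genes, their ligands, up to 3 DEGs per list and direction with the smallest p, the markers, and for each of the 4 DEGs the 3 genes most alike over the 6 libraries. Cd40, Relt, Ltbr, Trafd1, Tifab, Birc3, Tnfaip3, Tradd, Ripk1, Map3k5, Fadd, Casp8, Cflar, Ripk3 and Adam17 were chosen after their values were seen.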

Additional observations from a re-analysis of the deposited data

How the results depend on the processing

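Traf1 rose and Tnfrsf1b, Tnfrsf9 and Fas fell as DEGs with RLE, DESeq2, limma-voom, the likelihood ratio test, no filter and the replicate block. With the replicate block 2 of the 10 genes rose, and without both libraries numbered 3 (2 against 2) 2 rose and 0 fell, beside 1335 rising and 983 falling of all 12032 genes tested, Tnfrsf1b, Tnfrsf9 and Fas keeping negative log2 FCs. With single libraries left out, between 1 and 2 rose and between 0 and 3 fell, beside between 469 and 1941 rising and between 182 and 1772 falling over all genes, against 1633 and 1403 with 6 libraries. Fits without a library have fewer samples, and no fall among the 10 passed without LPS/siponimod replicate 1 or without LPS/siponimod replicate 3. Of 117 values of the 9 genes tested over 13 alternatives, 97 kept direction and call, 13 lost and 3 gained the call, and 4 changed sign, all of Traf2, which was 0.051 without both libraries numbered 3 and between -0.075 and 0.065 with single libraries left out. Tnf was 0.26 without LPS replicate 3 and 0.26 without both libraries numbered 3 (between -1.37 and 0.26 with single libraries left out), and Cd40 was 0.014 without both. The cause was not tested. With a pseudocount of 1, the replicate block or 1 library left out, both ratios kept their direction. With the replicate block, apart from the genes given beside their results, the calls of the 10 genes were unchanged. Outside the 10 genes, Tnfsf10, Tnfsf12, Relt, Tifab and Ripk3 were DEGs with DESeq2 and the likelihood ratio test, Tnfaip3 with DESeq2, Lta with the likelihood ratio test and Relt with limma-voom, while Rhbdf2 and Trafd1 were none without the filter. Depth limits Tnfrsf10b, which was not tested with the filter.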

Other observations

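The genes most alike to each of the 4 DEGs were read from log2 CPM over the 6 libraries, as a description without a test, since 6 points in 2 conditions give many high values. For Traf1 these were Gpatch3 (Pearson r = 0.9999), the deacetylase gene Sirt1 (0.999) and the AP-1 gene Fosl2 (0.999), and 14.3% of the genes tested had r above 0.90. For Tnfrsf1b they were Slc45a3 (0.995), Apmap (0.994) and the chemokine gene Ccl12 (0.993), with 5.87% above 0.90. Tnfrsf9 was followed by Pgap6 (0.997), the tubulin gene Tuba1b (0.997) and Eogt (0.997), with 8.52% above 0.90. Fas was followed by Herc6 (0.995), an interferon-inducible gene, the endocytic adaptor gene Dab2 (0.988) and Zfp316 (0.987), and had the fewest such genes of the 4 (2.77%). The same libraries and scaling lie behind each pair of genes.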
